A study of Mus musculus with 16 samples.

Results

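The conjugating enzymes described here are glutathione S-transferases (Gst), UDP-glycosyltransferases (Ugt) and sulfotransferases (Sult) of the mouse. Members were all probe sets whose gene symbol belongs to the Gst classes alpha, mu, pi, theta, kappa, omega and zeta, to Ugt families 1, 2, 3 and 8, or to any Sult family. The rule gave 53 genes with 1 probe set each, 21 Gst, 11 Ugt and 21 Sult, among the 22206 probe sets tested. The rule reads gene symbols and no measured values. The olfactory UDP-glucuronosyltransferases Ugt2a1 and Ugt2a2 and the Ugt1a genes were not analysed here.

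Small foreign molecules, odorants included, are commonly cleared in a chain of steps. Oxidation, often by cytochrome P450 enzymes, exposes or adds a reactive group. Conjugating enzymes then attach a large polar unit: Gst enzymes attach glutathione, most Ugt enzymes attach glucuronic acid, and Sult enzymes attach sulfate from the donor PAPS. Efflux transporters carry the products out of the cell. The olfactory mucosa holds such enzymes mainly in its supporting (sustentacular) cells and Bowman glands, beside the olfactory sensory neurons. Unsaturated aldehydes are substrates of several Gst classes, while undecanal, the odorant used, is a saturated fatty aldehyde.

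The series measured mRNA on Clariom S arrays in sorted cells of the olfactory mucosa of S100a5-tauGFP mice, in which S100a5, a gene with activity-dependent transcription in olfactory neurons, drives a green fluorescent protein fused to tau. All mice were C57BL/6 of both sexes, aged 7 to 12 weeks, and were kept singly in clean air chambers for 40 h. From 26 h onward they received 10 s pulses every 20 min of undecanal or of vehicle, which was filtered air. The 24 mice were pooled by 3, and each of the 8 pools gave an array titled GFP+ and an array titled GFP-. The 4 groups, with 4 arrays each, are therefore undecanal titled GFP+, undecanal titled GFP-, vehicle titled GFP+ and vehicle titled GFP-. Nothing else differs between the groups in the labels, and a pool hides the spread between its mice.

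In all 16 samples the title and the cell type entry of the labels gave opposite GFP signs, so the fractions are called by their titles only. The reporter's driver gene S100a5 read lower in titled GFP+ than in titled GFP- in each of the 8 pools. It had log2 values of 15.96, 15.62, 15.74 and 15.75 in undecanal arrays titled GFP+ and 17.06, 16.94, 16.49 and 16.45 in undecanal arrays titled GFP-. In vehicle pools S100a5 had 15.62, 15.66, 15.54 and 15.84 in arrays titled GFP+ and 16.91, 16.37, 16.37 and 16.66 in arrays titled GFP-. The fraction that carries more S100a5 mRNA is thus the one titled GFP-, and every fraction difference below runs titled GFP+ minus titled GFP-.

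Values are log2 probe set summaries. Probe sets differ in their response, so a value is compared between arrays and not between genes. A group mean below log2 4.80 is called below background. That level was taken from 358 vomeronasal and bitter receptor probe sets, as the 95th percentile of their group means. Of the 53 members, 18 lay above it in undecanal arrays titled GFP+, 16 in undecanal arrays titled GFP-, 17 in vehicle arrays titled GFP+ and 16 in vehicle arrays titled GFP-. In total 21 members did so in at least 1 group, 13 Gst, 5 Sult and 3 Ugt, and 14 did so in all 4 groups. The remaining 39 had at least 1 group that gave only a bound on their level, 32 of them in all 4 groups. Where 1 fraction was below background, the fitted difference is one of measured signals, and the fold is given as a bound, with each array of the dim fraction set no lower than the background level. No fold is given where both fractions were below it. The Sult members above background in at least 1 group were Sult1c1, Sult1d1, Sult1e1, Sult4a1 and Sult2a1, and the Ugt members were Ugt3a1, Ugt8a and Ugt2b36. Gsta3, Gsta4, Gstk1, Gstz1, Gsto1, Gstp1, Gstp2 and the mu class members other than Gstm6 made up the 13 Gst.

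RefSeq (assembly GRCm38.p6) held all 53 members under the same symbols, and promoter windows from 250 bases before to 50 bases after the start were matched for 46 of them. On chromosome 5 its order places Sult1e1 beside Sult1d1, and on chromosome 19 Gstp1 beside Gstp2. Those windows are shown because the first pair of neighbours differed in their pattern over the arrays, while both genes of the second pair read higher in arrays titled GFP+ of all 8 pools. Gsta3 is added as the alpha class member that differed most. Capitals mark letters found by searching both strands for TGACNNNGC, the core of the antioxidant response element bound by the stress regulator NRF2, its variant TGAGNNNGC, CCCNNGGG, a motif of the EBF (Olf-1) factors, and TATAAA.
Sult1d1 (chr5:87568957-87569256, minus strand) reads as follows.
Sult1d1: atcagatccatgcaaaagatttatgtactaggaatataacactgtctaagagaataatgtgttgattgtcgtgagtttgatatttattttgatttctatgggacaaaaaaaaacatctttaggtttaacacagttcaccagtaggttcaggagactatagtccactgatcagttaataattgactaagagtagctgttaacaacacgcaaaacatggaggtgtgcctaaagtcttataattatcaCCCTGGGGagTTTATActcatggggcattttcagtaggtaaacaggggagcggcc
Sult1e1 lies at chr5:87591562-87591861, minus strand.
Sult1e1: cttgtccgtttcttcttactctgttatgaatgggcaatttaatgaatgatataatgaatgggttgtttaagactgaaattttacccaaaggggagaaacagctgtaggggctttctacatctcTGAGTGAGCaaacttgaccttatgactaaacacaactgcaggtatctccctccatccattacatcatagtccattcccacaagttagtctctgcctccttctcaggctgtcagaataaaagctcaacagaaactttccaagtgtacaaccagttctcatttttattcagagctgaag
Gstp1 lies at chr19:4037863-4038162, minus strand.
Gstp1: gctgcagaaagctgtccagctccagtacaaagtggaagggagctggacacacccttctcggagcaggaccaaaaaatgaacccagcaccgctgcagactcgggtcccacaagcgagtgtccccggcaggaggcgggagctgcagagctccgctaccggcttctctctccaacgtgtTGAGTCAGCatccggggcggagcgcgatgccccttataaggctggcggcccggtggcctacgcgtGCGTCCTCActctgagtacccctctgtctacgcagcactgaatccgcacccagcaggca
Gstp2 lies at chr19:4042172-4042471, minus strand.
Gstp2: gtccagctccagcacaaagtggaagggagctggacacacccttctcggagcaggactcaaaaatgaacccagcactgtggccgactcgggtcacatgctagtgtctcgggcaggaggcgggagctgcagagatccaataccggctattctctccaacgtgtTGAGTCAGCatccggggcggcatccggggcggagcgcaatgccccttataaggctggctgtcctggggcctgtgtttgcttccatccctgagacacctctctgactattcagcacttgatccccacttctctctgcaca
Gsta3 lies at chr1:21240335-21240634, plus strand.
Gsta3: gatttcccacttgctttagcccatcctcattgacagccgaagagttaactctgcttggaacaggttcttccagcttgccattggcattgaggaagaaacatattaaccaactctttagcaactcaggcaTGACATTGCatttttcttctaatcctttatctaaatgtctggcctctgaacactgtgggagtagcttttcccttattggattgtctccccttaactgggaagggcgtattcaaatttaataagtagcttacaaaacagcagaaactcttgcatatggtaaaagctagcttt
The windows of Gstp1 and Gstp2 both held TGAGTCAGC, starting at positions -74 and -89 from the start, and Gstp1 held a further reverse match at -9. TGAGNNNGC was present in 17.6% of the 32851 windows of all genes and in 13 of the 57 windows of members, from 12 of the 46 members. Gsta3 held TGACATTGC at -121, and TGACNNNGC was present in 12.4% of all windows and in 3 of the 57 windows of members. These came from 3 members, the others being Gstm5 and Gstm7. Sult1e1 held TGAGTGAGC at -127. Sult1d1 held CCCTGGGG at -5, a match to CCCNNGGG, and a reverse TATAAA at 5. CCCNNGGG occurred in 13.7% of all windows and in 5 of the 57 windows of members, from 5 members. TATAAA itself occurred in 13.6% of all windows and in 13 of the 57 windows of members, from 12 members. These matches describe letters and are no evidence of binding.

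The first question was whether undecanal changed any conjugating enzyme. No member passed the test in either fraction (limma, Benjamini-Hochberg over all 22206 probe sets, threshold 0.05). In arrays titled GFP+ 1 probe set of the whole table passed, 0.0045% of them, and in arrays titled GFP- none did, or 0%. At an unadjusted p under 0.05 there were 2 members in arrays titled GFP+, against 2.72% of all probe sets, and 3 in arrays titled GFP-, against 4.12%. Undecanal and vehicle arrays did not overlap for 2 members in each fraction, against 1.87% of all probe sets in arrays titled GFP+ and 2.2% in arrays titled GFP-. The median difference, undecanal minus vehicle, over the 53 members was -0.05 in arrays titled GFP+ and -0.02 in arrays titled GFP-, beside 0.01 and 0.0043 over all probe sets.

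Among members with clear signal, Sult1d1 and Sult4a1 stayed close between the agents. The intervals show how large a change these arrays leave possible. Sult1d1, which conjugates dopamine and other small phenols, had log2 values of 18.31, 18.23, 18.08 and 18.21 in undecanal arrays titled GFP+ and 18.18, 18.36, 18.31 and 17.99 in vehicle arrays titled GFP+. In arrays titled GFP- it had 18.25, 18.19, 18.12 and 18.35 with undecanal and 18.31, 18.31, 18.37 and 18.05 with vehicle. All 4 groups overlapped. The 95% interval of its undecanal effect ran from -0.27 to 0.27 in arrays titled GFP+ and from -0.31 to 0.24 in arrays titled GFP-. Any saturation at this level, near the highest value of 19.7 on these arrays, was not tested.

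Sult4a1, a sulfotransferase of neurons without an established substrate, was equally close. It had 13.70, 13.60, 13.90 and 13.85 in undecanal arrays titled GFP+ and 13.68, 13.77, 13.77 and 13.84 in vehicle arrays titled GFP+. In arrays titled GFP- it had 13.93, 14.04, 14.14 and 13.65 with undecanal and 14.06, 13.61, 13.99 and 13.91 with vehicle. The undecanal effect lay between -0.30 and 0.30 in arrays titled GFP+ and between -0.25 and 0.35 in arrays titled GFP- (95% intervals). For Sult1c1 the intervals were wider, from -0.46 to 1.00 and from -0.72 to 0.75. Over the 21 members above background in at least 1 group the intervals reached from -1.08 to 1.00 in arrays titled GFP+ and from -1.06 to 1.29 in arrays titled GFP-, so smaller shifts of single members could not be told from none.

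**Figure D1:**
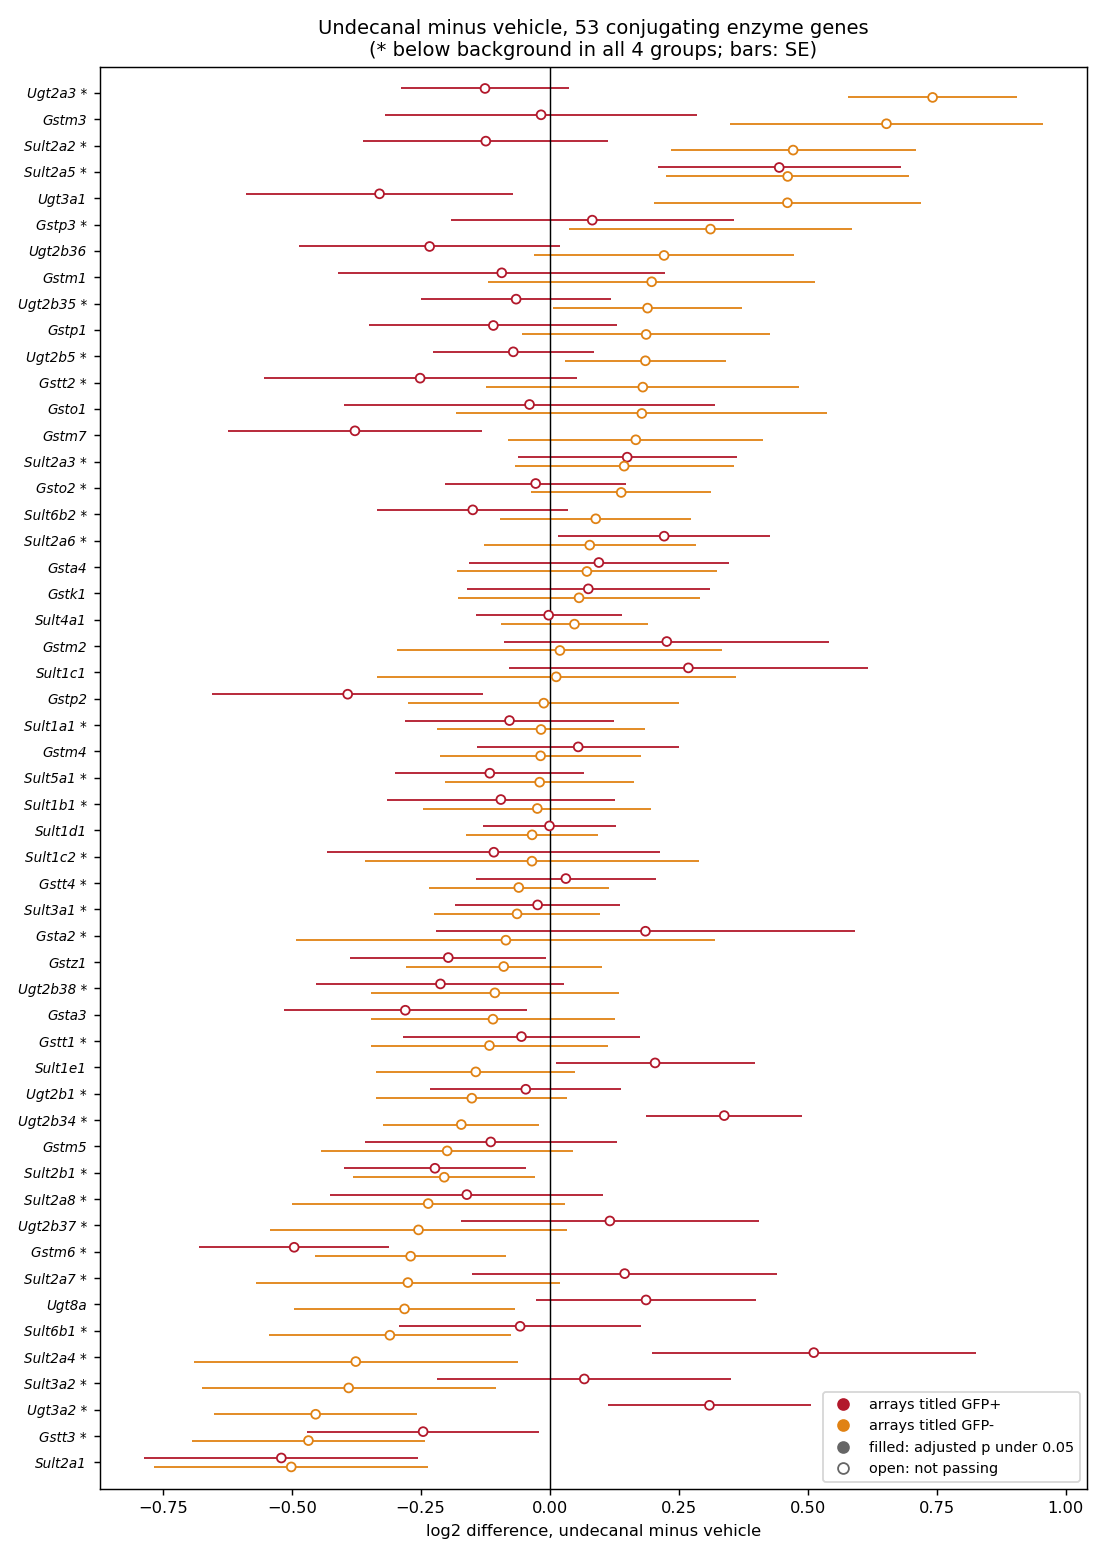
Undecanal minus vehicle for each of the 53 members, on the log2 scale, in arrays titled GFP+ (red) and arrays titled GFP- (orange), with standard errors as bars (4 arrays per group). A filled point would mark an adjusted p under 0.05 and none is filled. The member farthest to the right is Ugt2a3 in arrays titled GFP-, at 0.74.

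Ugt2a3, a glucuronosyltransferase of bile acids in humans, had the smallest p of the members. In arrays titled GFP- it had 4.15, 4.47, 3.97 and 4.10 with undecanal and 3.59, 3.21, 3.65 and 3.27 with vehicle. In arrays titled GFP+ it had 3.64, 3.33, 3.15 and 3.41 with undecanal and 3.73, 3.22, 3.56 and 3.53 with vehicle. Undecanal arrays titled GFP- were thus above every other array for this gene, but all 4 group means were below background. The difference in arrays titled GFP- was 0.74 (SE 0.163, limma adjusted p = 0.683), and that in arrays titled GFP+ was -0.13 (SE 0.163, limma adjusted p = 0.999).

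The remaining members with the smallest p were mostly below background as well. In arrays titled GFP+ they were Gstm6 (-0.50, SE 0.185), Ugt2b34 (0.34, SE 0.151), Sult2a1 (-0.52, SE 0.265) and Sult2a5 (0.44, SE 0.236), each with a limma adjusted p = 0.999. Of these only Sult2a1, a hydroxysteroid sulfotransferase, reached the background level in any group, with 4.89 ± 0.39 in vehicle arrays titled GFP- (SD, n = 4). In arrays titled GFP- they were Ugt3a2 (-0.45, SE 0.197), Gstm3 (0.65, SE 0.303) and Gstt3 (-0.47, SE 0.225), with a limma adjusted p of 0.9999. Gstm3, a mu class enzyme, had 6.21, 5.93, 5.84 and 5.31 in undecanal arrays titled GFP- and 5.49, 4.80, 5.22 and 5.17 in vehicle arrays titled GFP-. Those groups overlapped at undecanal pool 4.

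The second question was how the members differed between the sort fractions. In undecanal pools 10 members passed, 8 higher in arrays titled GFP+ and 2 lower, while 8.83% of all probe sets passed as higher and 4.36% as lower. In vehicle pools 12 members passed, 11 higher and 1 lower, while 8.82% of all probe sets passed as higher and 5.12% as lower. Higher in both agents were Sult1c1, Sult1e1, Gstp1, Gsta3, Gsto1, Gstm5 and Ugt8a, all 7 members that passed in both. By class, 5 of 21 Gst, 2 of 21 Sult and 1 of 11 Ugt were higher in undecanal pools, and 8 Gst, 2 Sult and 1 Ugt in vehicle pools. The lower ones were all Ugt: Ugt3a1 and Ugt2a3 in undecanal pools and Ugt3a2 in vehicle pools. The class medians in undecanal and vehicle pools were 0.38 and 0.54 for Gst, -0.02 and -0.05 for Sult, and -0.29 and -0.16 for Ugt, beside -0.11 and -0.11 over all probe sets. In each agent 12 members had fractions that did not overlap, as had 17.3% of all probe sets in undecanal pools and 18.1% in vehicle pools.

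The split between higher and lower calls moved with the scaling. When arrays were centred on their medians, 7 of the 53 members were higher and 18 lower in undecanal pools. In vehicle pools 9 were higher and 19 lower. Of all 22206 probe sets, 1584 were then called higher and 11129 lower in undecanal pools. In vehicle pools 1570 probe sets were called higher and 11231 lower, so the lower calls were not particular to the members. That centring moved the median of all probe sets to -0.46 and -0.47. The share of members' calls that were higher was then 28.0% and 32.1%, against 80.0% and 91.7% on the deposited scale. Centring on a list of mature olfactory neuron genes gave 13 members higher and 2 lower in undecanal pools. In vehicle pools it gave 12 higher and 0 lower. Over all probe sets that centring called 2530 higher and 467 lower in undecanal pools, and 2567 higher and 513 lower in vehicle pools. Of the 7 members higher in both agents, Ugt8a lost its call in vehicle pools under median centring (0.49, limma adjusted p = 0.0571), and the other calls held under each scaling. Median centring also removed the calls of Gstt2 in vehicle pools and Gstt3 in undecanal pools. The calls it added were all lower. They included Ugt3a1 in vehicle pools and Sult1d1, Sult4a1, Gstm4, Gstk1 and Gstz1 in both agents. Centring on the neuron list added calls in undecanal pools, among them those of Gstm1, Gstm2, Gstm7 and Gstp2. In vehicle pools it added a call for Gstt3, as did quantile normalization, and removed that of Ugt3a2.

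**Figure D2:**
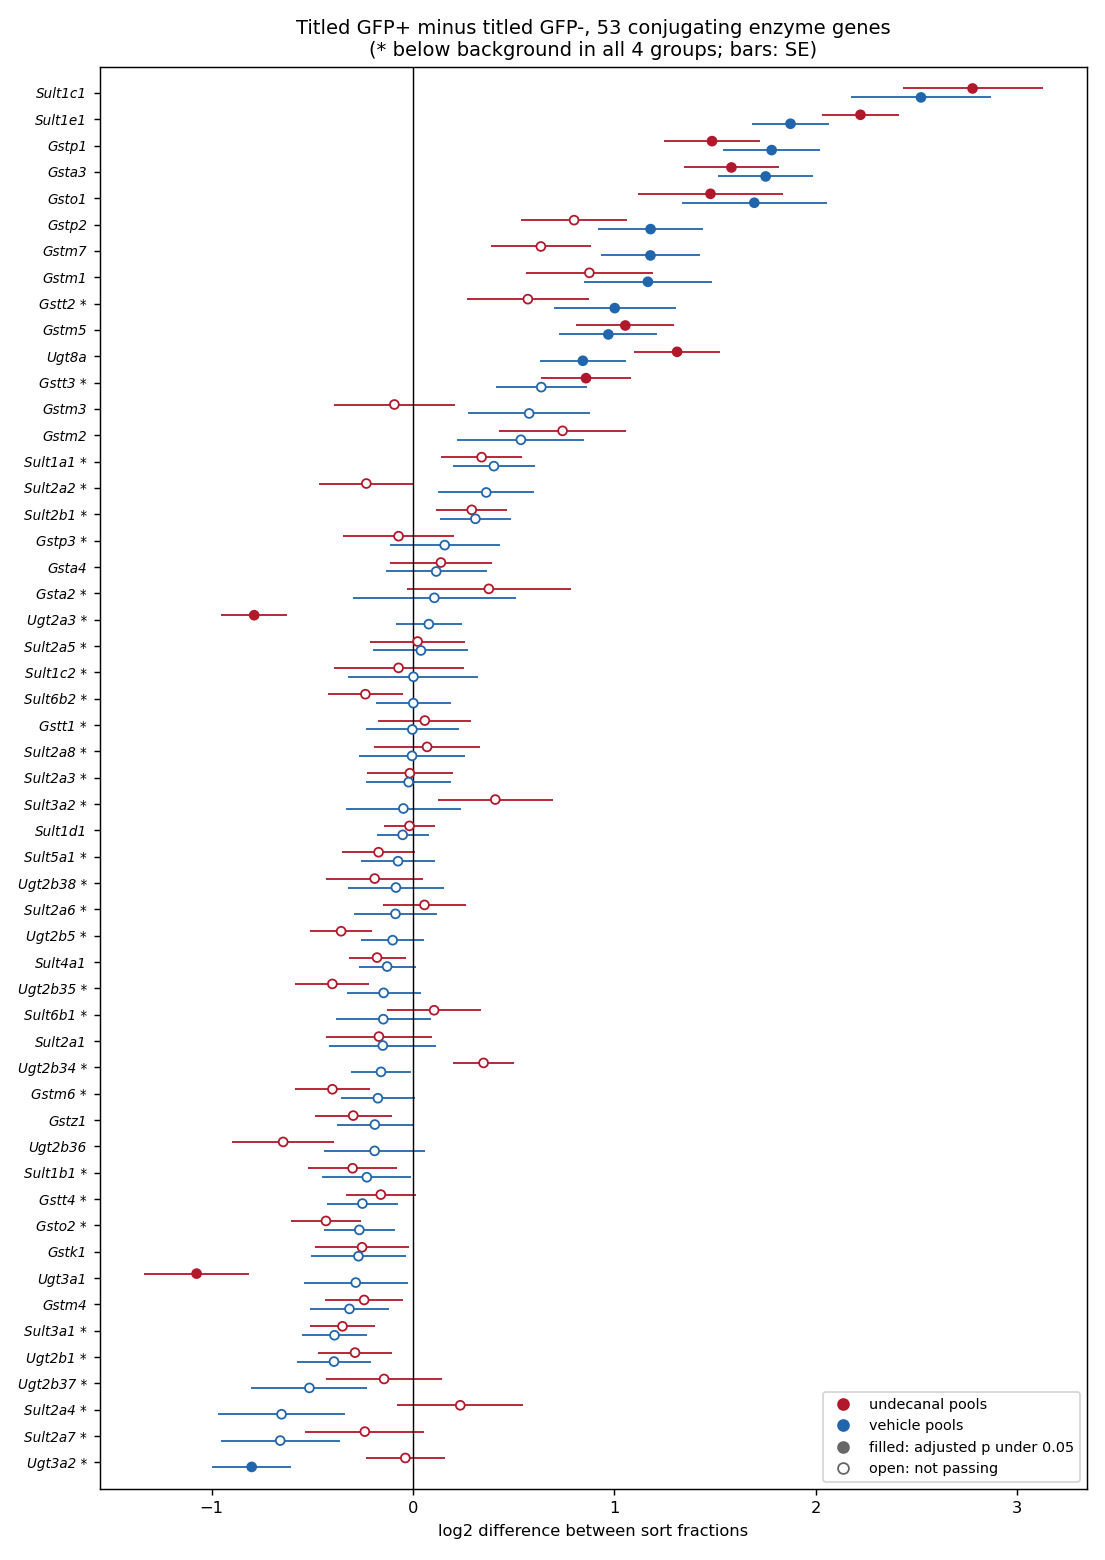
Titled GFP+ minus titled GFP- for each of the 53 members, on the log2 scale, in undecanal pools (red) and vehicle pools (blue), with standard errors as bars. Filled points have an adjusted p under 0.05, and an asterisk marks members below background in all 4 groups. Sult1c1 lies farthest to the right in both agents, at 2.78 and 2.52, and the lowest filled point is Ugt3a1 in undecanal pools, at -1.08.

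Among the sulfotransferases, Sult1c1, an enzyme described in the mouse olfactory mucosa that conjugates phenols, had the largest fitted difference of all members in both agents. It had 11.94, 11.11, 10.95 and 11.01 in undecanal arrays titled GFP+ and 9.49, 8.24, 8.25 and 7.91 in undecanal arrays titled GFP-. With vehicle it had 11.22, 10.71, 10.75 and 11.28 in arrays titled GFP+ and 8.88, 7.45, 8.63 and 8.90 in arrays titled GFP-. The lowest array titled GFP+ stood more than 1 log2 unit above the highest array titled GFP-. The difference was 2.78, or 6.87-fold (SE 0.348, limma adjusted p = 1.12e-05), in undecanal pools and 2.52, or 5.75-fold (SE 0.348, limma adjusted p = 3.43e-05), in vehicle pools. Within pools it ranged from 2.45 to 3.10 with undecanal and from 2.12 to 3.26 with vehicle.

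Sult1e1, the estrogen sulfotransferase, was also higher in arrays titled GFP+ in both agents. It had 6.53, 6.00, 6.39 and 6.31 in undecanal arrays titled GFP+ and 4.21, 4.29, 4.10 and 3.73 in undecanal arrays titled GFP-. In vehicle pools it had 6.48, 5.70, 5.92 and 6.31 in arrays titled GFP+ and 3.97, 4.12, 4.56 and 4.25 in arrays titled GFP-. Every array titled GFP- was below the background level, so Sult1e1 was at least 2.84-fold higher in arrays titled GFP+ of undecanal pools and at least 2.47-fold higher in those of vehicle pools. The fitted difference of the measured signals was 2.22 (SE 0.193, limma adjusted p = 1.17e-07) in undecanal pools and 1.88 (SE 0.193, limma adjusted p = 9.77e-07) in vehicle pools.

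Its chromosomal neighbour Sult1d1 showed no such difference, at -0.02 (95% interval from -0.29 to 0.25) in undecanal pools and -0.05 (from -0.32 to 0.22) in vehicle pools. Sult4a1 differed by -0.18 (from -0.48 to 0.12) and -0.13 (from -0.43 to 0.17). Neither passed the test on the deposited scale. Under median centring both were called lower, Sult1d1 at -0.37 and -0.41 and Sult4a1 at -0.54 and -0.48, beside medians of -0.46 and -0.47 over all probe sets on that scale. Under centring on the mature neuron list Sult1d1 stood at 0.17 and 0.13 and Sult4a1 at 0.0068 and 0.05, with no call. The other Sult members, among them the Sult2a, Sult3a and Sult6b genes, were below background apart from Sult2a1. None of them passed on the deposited scale in the model without a block.

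**Figure D3:**
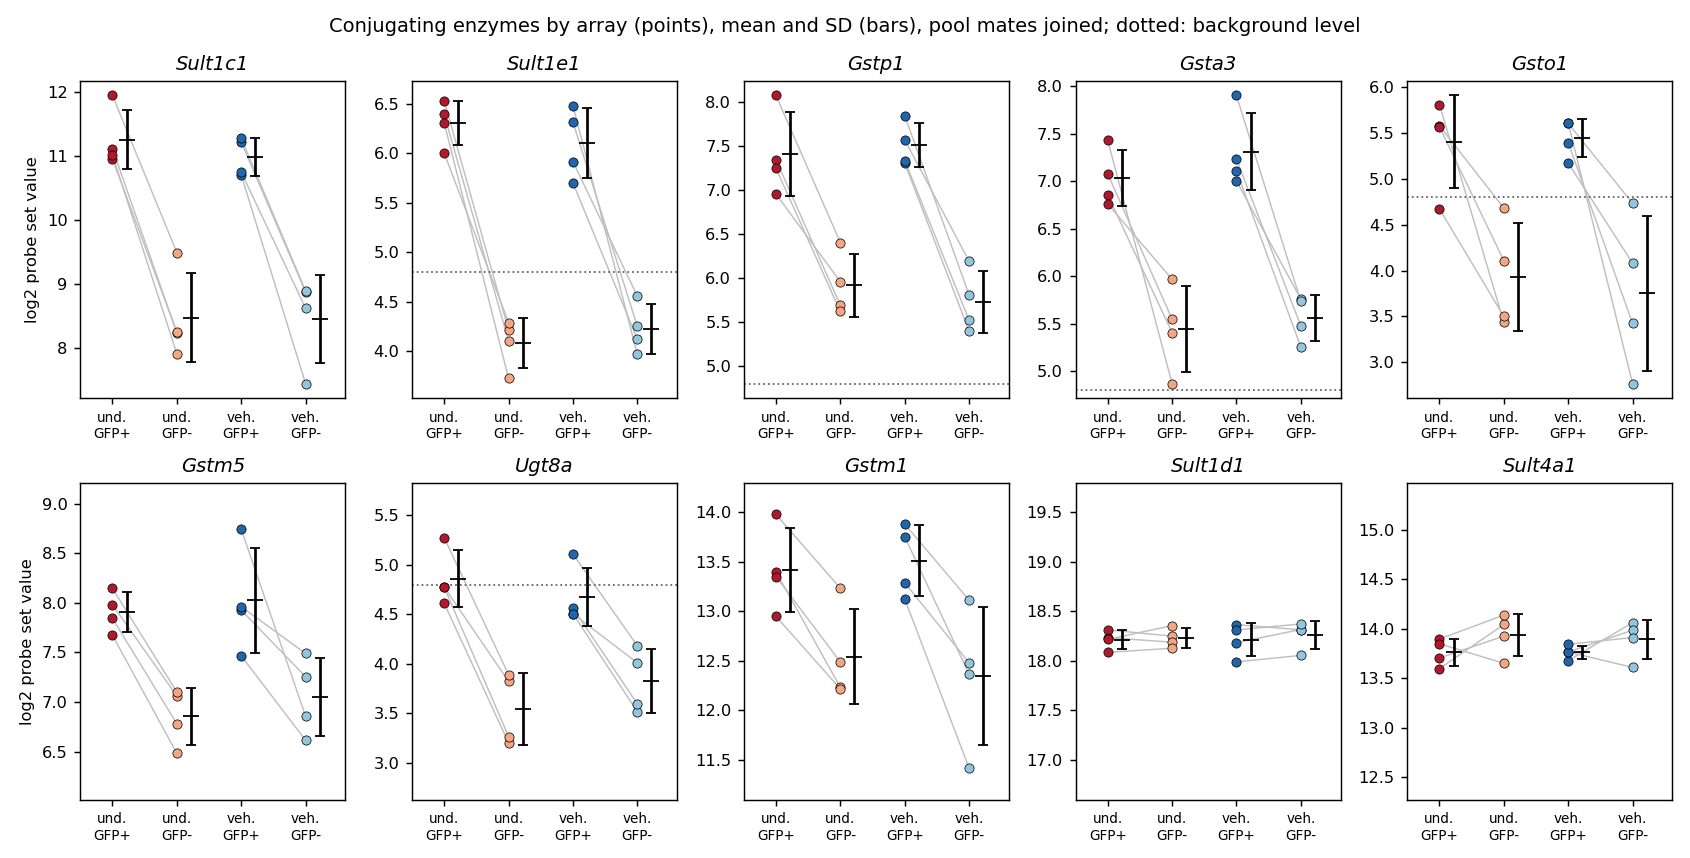
Log2 level on each array for 10 members, with the groups in the order undecanal titled GFP+, undecanal titled GFP-, vehicle titled GFP+ and vehicle titled GFP-. Points are arrays, bars the mean and SD of 4 arrays, grey lines join the fractions of a pool and the dotted line is the background level of 4.80. Sult1c1, Sult1e1, Gstp1 and Gsta3 separate by fraction in both agents, while Sult1d1 and Sult4a1 stay level.

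Among the glutathione transferases above background in all 4 groups, Gstp1 and Gsta3 had the largest differences in both agents. Gstp1, a pi class enzyme that conjugates electrophiles such as unsaturated aldehydes, had 7.34, 8.07, 7.24 and 6.95 in undecanal arrays titled GFP+ and 5.69, 6.40, 5.62 and 5.96 in undecanal arrays titled GFP-. Vehicle pools gave 7.57, 7.30, 7.33 and 7.84 in arrays titled GFP+ and 6.19, 5.40, 5.52 and 5.81 in arrays titled GFP-. The fractions did not overlap in either agent. The difference was 1.49 (SE 0.240, limma adjusted p = 1.98e-04) in undecanal pools and 1.78 (SE 0.240, limma adjusted p = 2.68e-05) in vehicle pools. Its neighbour Gstp2 did not pass in undecanal pools (0.80, SE 0.263, limma adjusted p = 0.0535) and passed in vehicle pools (1.18, SE 0.263, limma adjusted p = 0.00406). The undecanal value passed without undecanal pool 4 (0.98, limma adjusted p = 0.0471) or vehicle pool 2 (0.80, limma adjusted p = 0.0365), and among probe sets above background only (limma adjusted p = 0.0431). Pi class transcripts are much alike, so probe sets of Gstp1 and Gstp2 may share signal, and Gstp3 was below background.

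Gsta3, an alpha class enzyme, had 6.86, 7.43, 7.08 and 6.76 in undecanal arrays titled GFP+ and 5.41, 4.87, 5.55 and 5.97 in undecanal arrays titled GFP-. In vehicle pools it had 7.23, 7.11, 7.00 and 7.90 in arrays titled GFP+ and 5.48, 5.26, 5.76 and 5.74 in arrays titled GFP-. Again the fractions did not overlap, with differences of 1.58 (SE 0.236, limma adjusted p = 8.28e-05) in undecanal pools and 1.75 (SE 0.236, limma adjusted p = 2.64e-05) in vehicle pools. Gsta4, the alpha class member known for conjugating lipid aldehydes such as hydroxynonenal, differed by 0.14 (95% interval from -0.39 to 0.67) and 0.12 (from -0.42 to 0.65) and did not pass.

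Gsto1, an omega class enzyme with thioltransferase and dehydroascorbate reductase activity, had 5.81, 4.67, 5.58 and 5.57 in undecanal arrays titled GFP+ and 3.44, 3.50, 4.68 and 4.11 in undecanal arrays titled GFP-. Vehicle pools gave 5.61, 5.61, 5.17 and 5.40 in arrays titled GFP+ and 2.77, 4.74, 4.08 and 3.43 in arrays titled GFP-. The undecanal groups overlapped by a single array. Every array titled GFP- was below background, so Gsto1 was at least 1.53-fold higher in arrays titled GFP+ of undecanal pools and at least 1.57-fold higher in those of vehicle pools. The fitted difference of the measured signals was 1.48 (SE 0.359, limma adjusted p = 0.00810) in undecanal pools and 1.70 (SE 0.359, limma adjusted p = 0.00268) in vehicle pools. Without undecanal pool 1 the undecanal value was 1.18 and no longer passed (limma adjusted p = 0.0992).

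The mu class is encoded by a cluster of neighbouring genes in RefSeq, and its members did not all follow the same pattern. Gstm5 had 7.98, 8.15, 7.84 and 7.67 in undecanal arrays titled GFP+ and 7.06, 7.10, 6.78 and 6.48 in undecanal arrays titled GFP-. In vehicle pools Gstm5 had 7.93, 7.47, 7.96 and 8.74 in arrays titled GFP+ and 7.26, 6.61, 7.49 and 6.86 in arrays titled GFP-. The fractions were apart in undecanal pools and overlapped by 1 array in vehicle pools. The difference was 1.05 (SE 0.244, limma adjusted p = 0.00550) in undecanal pools and 0.97 (SE 0.244, limma adjusted p = 0.0102) in vehicle pools. Leaving out vehicle pool 4 gave 0.67 (limma adjusted p = 0.0936).

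Gstm1, an abundant mu class enzyme of liver and olfactory tissue, had 13.98, 13.40, 13.35 and 12.95 in undecanal arrays titled GFP+ and 13.23, 12.23, 12.49 and 12.21 in undecanal arrays titled GFP-. In vehicle pools it had 13.75, 13.12, 13.29 and 13.88 in arrays titled GFP+ and 12.37, 11.42, 12.48 and 13.11 in arrays titled GFP-. It was higher in the array titled GFP+ of all 8 pools. The vehicle difference of 1.17 passed (SE 0.317, limma adjusted p = 0.0172), with an adjusted p of 0.0944 without vehicle pool 1 and 0.0522 without vehicle pool 2. In undecanal pools the difference of 0.88 did not pass (SE 0.317, limma adjusted p = 0.0833). With the pool as a block it did (limma adjusted p = 0.00516), and likewise without vehicle pool 2 (limma adjusted p = 0.0387).

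Of the other mu class members, Gstm7 differed by 0.64 in undecanal pools (SE 0.247, limma adjusted p = 0.111) and passed in vehicle pools alone, at 1.18 (SE 0.247, limma adjusted p = 0.00240). Its arrays titled GFP- were all below background, which makes the Gstm7 difference in vehicle pools at least 1.36-fold. Gstm2 differed by 0.74 in undecanal pools and 0.54 in vehicle pools, Gstm3 by -0.09 and 0.58, and Gstm4 by -0.24 and -0.32, with no call for any of them, although the undecanal value of Gstm2 passed without vehicle pool 2 (limma adjusted p = 0.0269). Probe sets of close mu class paralogs may share signal, so values of single members are uncertain. Gstk1, the kappa class enzyme of mitochondria and peroxisomes, differed by -0.25 in undecanal pools and -0.27 in vehicle pools. Gstz1, which acts in tyrosine breakdown, differed by -0.30 and -0.19, and neither passed on the deposited scale. Under median centring Gstm4 (-0.60 and -0.67), Gstk1 (-0.61 and -0.63) and Gstz1 (-0.65 and -0.55) were called lower in undecanal and vehicle pools. The medians over all probe sets on that scale were -0.46 and -0.47. The theta class members Gstt3, higher in undecanal pools (0.86, SE 0.225, limma adjusted p = 0.0139), and Gstt2, higher in vehicle pools (1.00, SE 0.303, limma adjusted p = 0.0332), were below background in all 4 groups. The vehicle call of Gstt2 was lost without vehicle pool 1 (0.79, limma adjusted p = 0.202), 2 (1.09, 0.0665) or 3 (1.00, 0.105), and its undecanal value of 0.57 passed without undecanal pool 3 (1.04, 0.0254). The undecanal call of Gstt3 was lost without undecanal pool 2 (0.68, limma adjusted p = 0.138) or 4 (0.75, limma adjusted p = 0.0911).

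Ugt8a, the enzyme that attaches galactose to ceramide in the making of myelin lipids, was the glycosyltransferase higher in arrays titled GFP+ in both agents. It had 4.78, 5.27, 4.61 and 4.77 in undecanal arrays titled GFP+ and 3.82, 3.89, 3.20 and 3.27 in undecanal arrays titled GFP-. Vehicle arrays of Ugt8a read 4.51, 4.56, 5.11 and 4.51 in arrays titled GFP+ and 3.52, 3.60, 4.18 and 4.01 in arrays titled GFP-. The fractions did not overlap, although only the mean of undecanal arrays titled GFP+, 4.86 ± 0.29 (SD, n = 4), exceeded background. Of those arrays only that of pool 2, at 5.27, was itself above background. The group means leave a bound of at least 1.04-fold for Ugt8a in undecanal pools and none in vehicle pools. The fitted difference of the measured signals was 1.31 (SE 0.214, limma adjusted p = 2.18e-04) in undecanal pools and 0.84 (SE 0.214, limma adjusted p = 0.0108) in vehicle pools. The vehicle call was lost without vehicle pool 1 (0.80, limma adjusted p = 0.0553) or vehicle pool 2 (0.80, limma adjusted p = 0.0602).

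Ugt3a1 and Ugt3a2, neighbours whose human counterparts use sugars other than glucuronic acid, were lower in arrays titled GFP+, each in 1 agent. Ugt3a1 had 4.75, 3.80, 4.06 and 4.49 in undecanal arrays titled GFP+ and 5.63, 5.03, 5.84 and 4.91 in undecanal arrays titled GFP-. In vehicle pools Ugt3a1 had 4.79, 4.57, 4.82 and 4.24 in arrays titled GFP+ and 4.95, 5.41, 4.85 and 4.35 in arrays titled GFP-. The fractions were apart in undecanal pools and overlapped in vehicle pools. All undecanal arrays titled GFP+ were below background, so Ugt3a1 was at least 1.46-fold lower there than in undecanal arrays titled GFP-. The fitted differences of the measured signals were -1.08 (SE 0.259, limma adjusted p = 0.00761) and -0.28 (SE 0.259, limma adjusted p = 0.534), and without undecanal pool 3 the first was -0.84 (limma adjusted p = 0.0857).

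Ugt3a2 had 4.10, 4.13, 4.16 and 3.57 in undecanal arrays titled GFP+ and 3.95, 3.81, 4.02 and 4.34 in undecanal arrays titled GFP-. In vehicle pools Ugt3a2 had 4.00, 3.61, 3.46 and 3.65 in arrays titled GFP+ and 4.23, 4.78, 4.82 and 4.09 in arrays titled GFP-. All 4 group means were below background. The difference was -0.04 (SE 0.197, limma adjusted p = 0.937) in undecanal pools and -0.80 (SE 0.197, limma adjusted p = 0.00868) in vehicle pools. Without vehicle pool 2 the vehicle value was -0.68 (limma adjusted p = 0.0795), and without vehicle pool 3 it was -0.62 (limma adjusted p = 0.0969). The undecanal value, which had no call, changed sign in some settings. Ugt2a3 differed by -0.79 in undecanal pools (SE 0.163, limma adjusted p = 0.00217) and 0.08 in vehicle pools (SE 0.163, limma adjusted p = 0.809). The 7 Ugt2b members did not pass on the deposited scale, and Ugt2b36 alone reached background, with 4.91 ± 0.67 in undecanal arrays titled GFP- (SD, n = 4).

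The third comparison asked whether undecanal changed the fraction difference itself. No member and no other probe set passed the interaction test (limma, 0% of 22206), and 4 members had an unadjusted p under 0.05, against 2.63% of all probe sets. The others of these 4 were Ugt2b34 and Ugt3a1, and the smallest p belonged to Ugt2a3 (-0.87, SE 0.231, limma adjusted p = 1) and Ugt3a2 (0.76, SE 0.279, limma adjusted p = 1), both below background. For 3 members above background in all groups the 95% intervals of the change ran from -0.78 to 1.29 for Sult1c1, from -1.01 to 0.42 for Gstp1 and from -0.87 to 0.53 for Gsta3. A call in 1 agent alone, as for Gstp2, Gstm1, Gstm7, Gstt2, Gstt3, Ugt2a3, Ugt3a1 and Ugt3a2, was therefore not shown to depend on undecanal.

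Genes that act around the conjugation step were counted by list. Undecanal effects called 0 genes in any of 7 lists (limma). At an unadjusted p under 0.05 there were 2 genes in arrays titled GFP+ (Slc7a11 and Abcc2) and 1 in arrays titled GFP- (Gpx6). Of all probe sets 2.72% and 4.12% had such a p. Counts of fraction differences stand beside 8.83% of all probe sets higher and 4.36% lower in undecanal pools. In vehicle pools those shares were 8.82% and 5.12%. Of 21 measured genes of glutathione supply and use, 4 were higher in arrays titled GFP+ in undecanal pools and 5 in vehicle pools, with none lower. They were led by Gpx1, a glutathione peroxidase, with 14.83, 14.17, 13.78 and 13.16 in undecanal arrays titled GFP+ and 10.68, 10.57, 10.92 and 10.45 in undecanal arrays titled GFP-. The Gpx1 difference was 3.33 in undecanal pools and 3.35 in vehicle pools (SE 0.310 each, limma adjusted p = 2.89e-07 and 2.52e-07). Gpx6, a peroxidase known from olfactory tissue, differed by 1.30 and 2.59 (limma adjusted p = 0.00387 and 2.46e-06), and the first lost its call without undecanal pool 2 (1.04, limma adjusted p = 0.0562). Slc7a11, which imports cystine for glutathione synthesis, differed by 1.09 and 1.51 (limma adjusted p = 0.00119 and 4.00e-05).

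The donor lists were small. The list of 5 genes for UDP-glucuronic acid supply also holds the lysosomal glucuronidase Gusb, which splits conjugates and does not supply the donor. Gusb was higher by 2.09 in undecanal pools and 2.54 in vehicle pools (limma adjusted p = 2.14e-05 and 1.91e-06). Of 4 measured genes of PAPS supply none passed, and the smallest p in vehicle pools was that of Bpnt1, which breaks down the spent donor (-0.08 in undecanal pools and -0.36 in vehicle pools, limma adjusted p = 0.881 and 0.379). Of 13 other conjugating enzymes 3 were higher and 1 lower in each agent. Mgst1, a membrane-bound glutathione transferase, had 11.16, 10.81, 10.69 and 9.96 in undecanal arrays titled GFP+ and 7.14, 6.85, 6.78 and 5.42 in undecanal arrays titled GFP-, a difference of 4.11 (SE 0.520, limma adjusted p = 1.30e-05), against 3.59 in vehicle pools (SE 0.520, limma adjusted p = 6.04e-05). Hpgds, the sigma class transferase that makes prostaglandin D, differed by 2.91 and 2.75 in measured signal (limma adjusted p = 1.69e-06 and 3.24e-06). All its arrays titled GFP- were below background, so Hpgds was at least 4.21-fold higher in arrays titled GFP+ of undecanal pools and at least 3.91-fold higher in those of vehicle pools. Glyat, a glycine acyltransferase below background in all 4 groups, differed by -1.27 and -1.05 (limma adjusted p = 0.00511 and 0.0197), and single pools, or centring on the neuron list in vehicle pools, decided its call. Without undecanal pool 1 or 4 the first was -1.03 (limma adjusted p = 0.0667) or -1.04 (limma adjusted p = 0.0565). Without vehicle pool 1, 3 or 4 the second was -0.89, -1.10 or -1.10 (limma adjusted p = 0.112, 0.0525 and 0.0584).

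Among 10 efflux transporters Abcg2 and Abcc3 were higher in both agents, Abcg2 by 2.01 in undecanal pools and 1.48 in vehicle pools in measured signal (limma adjusted p = 5.86e-05 and 0.00132). Its arrays titled GFP- were all below background, which leaves Abcg2 at least 1.45-fold higher in arrays titled GFP+ of undecanal pools and at least 1.24-fold higher in those of vehicle pools. Abcc3, which exports glucuronide and glutathione conjugates, differed by 1.13 and 1.05 (limma adjusted p = 3.36e-04 and 6.99e-04). Of 16 xenobiotic regulators and NRF2 targets, none passed in undecanal pools and 1 in vehicle pools. It was Srxn1, a sulfiredoxin, at -0.70 in vehicle pools (limma adjusted p = 0.0111, or 0.0918 without vehicle pool 1 and 0.0939 when centred on mature neuron genes). In undecanal pools Srxn1 stood at -0.53 (limma adjusted p = 0.0577). That value passed with the pool as a block (0.0358), under median centring (-0.89, 0.00172), quantile normalization (0.0499), array weights (0.0428) or a trended prior variance (0.0477), among probe sets above background only (0.0408), and without vehicle pool 2 (0.0394) or 3 (0.0450). Of 11 phase I partners 4 were higher in each agent, namely Cyp1a2, Cyp2a5, Cyp2f2 and Cyp2g1, and all but Cyp2f2 also stand on the list of sustentacular markers. Cyp1a2 differed by 2.15 and 2.72, Cyp2a5 by 2.23 and 2.41 and Cyp2f2 by 1.83 and 2.04 in undecanal and vehicle pools, each with a limma adjusted p under the threshold.

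Markers of several other cell types, though not of all that were listed, also differed between the fractions. Sustentacular markers were higher in arrays titled GFP+ for 7 of 10 genes in each agent, and their mean level per array lay between 8.88 and 9.70 in undecanal arrays titled GFP+, 7.11 and 7.74 in undecanal arrays titled GFP-, 8.81 and 9.48 in vehicle arrays titled GFP+, and 6.78 and 7.68 in vehicle arrays titled GFP-. Hes1 of that list was below background. Cyp2g1, one of its defining genes, had 15.98, 14.97, 15.07 and 15.09 in undecanal arrays titled GFP+ and 14.03, 13.12, 13.55 and 13.23 in undecanal arrays titled GFP-. In vehicle pools Cyp2g1 had 15.63, 14.83, 15.23 and 15.59 in arrays titled GFP+ and 13.99, 12.13, 13.75 and 13.72 in arrays titled GFP-. Undecanal pool 1 had the highest value of Cyp2g1, Sult1c1 and Gstm1 in both fractions, and vehicle pool 2 had the lowest array titled GFP- for all 3 genes. Other members ranked differently. Gstp1 was highest in undecanal pool 2 in both fractions, and Gsta3 and Gstm5 titled GFP+ were highest in vehicle pool 4. Among arrays titled GFP-, Gstp1 too was lowest in vehicle pool 2, but Gsta3 in undecanal pool 2 and Gstm5 and Sult1e1 in undecanal pool 4.

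Blood cell markers differed between the fractions as well. All 9 neutrophil genes were higher in both agents, with mean levels from 13.26 to 14.15 in undecanal arrays titled GFP+, 4.39 to 4.95 in undecanal arrays titled GFP-, 13.41 to 14.25 in vehicle arrays titled GFP+ and 4.52 to 5.27 in vehicle arrays titled GFP-. All 8 measured macrophage genes were higher too, with means from 7.11 to 8.02, 4.22 to 4.99, 7.20 to 7.70 and 4.15 to 4.97 in the same order of groups. Lymphocyte genes were higher for 4 of 4 in undecanal pools and 3 of 4 in vehicle pools, and erythroid genes for 2 of 2 in each. Microvillar cell genes were higher for 7 and 8 of 8 (Chat below background), Bowman gland genes for 2 of 6 in each (Sox10, Muc5b and Pigr below background) and respiratory epithelium genes for 3 of 5 in each (Scgb1a1 below background). Immature neuron genes were higher for 4 and 5 of 6 and basal cell and progenitor genes for 3 and 2 of 6. Of 3 measured ensheathing glia genes 0 were called in either agent (Frzb below background). Endothelium genes were higher for 1 of 4 in undecanal pools and 0 in vehicle pools (Cldn5, Kdr and Cdh5 below background). Fibroblast genes were higher for 1 of 4 in each (Col1a2 below background).

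Mature olfactory neuron markers, which define the main cell type of this tissue, lay close together. Of 11 genes 1 was lower in each agent, and their mean lay between 15.97 and 16.16 in undecanal arrays titled GFP+, 16.14 and 16.37 in undecanal arrays titled GFP-, 16.04 and 16.10 in vehicle arrays titled GFP+, and 16.19 and 16.36 in vehicle arrays titled GFP-. The mean was slightly lower in the array titled GFP+ of every pool, and the fractions did not overlap in vehicle pools. The part that any of these cell types had in the members' fraction differences was not tested. In RNA of sorted pools, fewer cells of a type and less RNA per cell cannot be told apart.

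**Figure D4:**
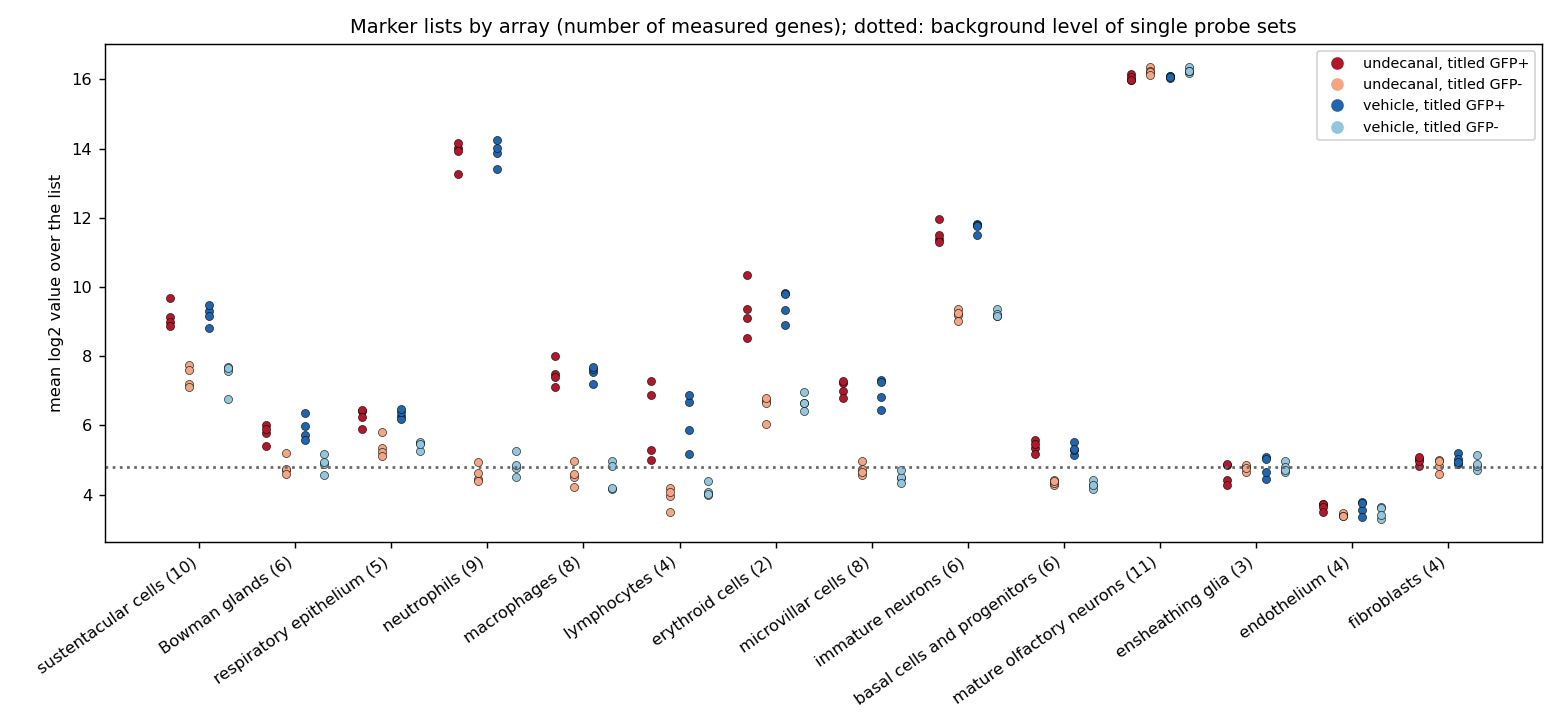
Mean log2 level of each cell type marker list on each array, with undecanal titled GFP+, undecanal titled GFP-, vehicle titled GFP+ and vehicle titled GFP- side by side. The neutrophil list separates the fractions most, at 13.26 to 14.25 in arrays titled GFP+ and 4.39 to 5.27 in arrays titled GFP-, and the mature neuron list lies between 15.97 and 16.37 on all arrays.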

How the data were processed

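RNA of sorted olfactory mucosa cells was hybridised to 16 Clariom S arrays from 50 to 100 ng of total RNA, per the labels' protocols. The table deposited by the authors holds 1 log2 value per probe set and array, between 1.44 and 19.7. Per the submitters' processing notes it came from Affymetrix Expression Console. Neither the summary method nor the build of the annotation is stated there, so no coordinates of probe sets are printed. Arrays have no depth, and their number limits the precision.

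Of 28846 rows 6640 control rows were left out. Genes were named through the platform annotation, which gave 19572 of 22206 probe sets 1 gene and 2634 none. All 53 members matched RefSeq (GRCm38.p6) by gene ID, where the symbol rule holds 65 protein-coding genes. The 12 others were not analysed here. Where a gene had several probe sets the one with the highest mean was taken, which concerned no member.

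Groups followed the titles. A linear model of 4 group means, without a block, was fitted over the 16 arrays in R 4.3.3 with lmFit and eBayes of limma 3.58.1, with Benjamini-Hochberg adjustment over all 22206 probe sets, and checked on simulated data. Contrasts were undecanal minus vehicle by fraction, titled GFP+ minus titled GFP- by agent, and their interaction. The p-values treat both fractions of a pool as independent. Members, gene lists and tests were chosen with earlier results of these data known. Values per array are given for members passing the fraction test in both agents, for the 4 members with the smallest p for undecanal in each fraction (in part as differences only), for the 2 with the smallest p in the interaction, for the olfactory members Sult1c1, Gstm1 and Gstp1, and for S100a5. Up to 3 passing genes of each pathway list, or else the smallest p, were named. Sult1d1, Sult4a1, Ugt3a1 and Gstm3 were added for their place in their families, and Cyp2g1 as a marker.

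Since 24 mice were grouped by 3, there are 8 pools, and both arrays of a pool were treated as coming from the same animals. Deviations of pool mates from their group means had r between 0.050 and 0.271, above 0.1 in 6 of the 8 pools. Arrays with the same number but different agents had r between -0.042 and 0.291. Within groups r between arrays lay between 0.989 and 0.993, and 0 pairs were identical. Alternatives covered scaling, dim probe sets, prior variance, array weights, the block, the samples fitted and left-out pools.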

Additional observations from a re-analysis of the deposited data

Results flagged for a closer look

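Among 152 groups of 4 arrays examined, 8 held an array whose gap to the nearest other exceeded the 95% limit of Dixon's test, and chance gives about 5% of groups. Among members, Sult1c1 was 11.94 in the undecanal array titled GFP+ of pool 1, against 11.11 in the next array, and that array was also the highest of its group for Cyp2f2, at 13.26 against 12.69. Ugt3a2 was 3.57 in the undecanal array titled GFP+ of pool 4, against 4.10, and Ugt2b34 was 2.81 in the undecanal array titled GFP+ of pool 2, against 2.57, both below background. Ugt8a was 5.11 in the vehicle array titled GFP+ of pool 3, against 4.56. Gpx1 was 13.65 in the vehicle array titled GFP+ of pool 4, against 14.32, and 9.99 in the vehicle array titled GFP- of pool 2, against 11.06. Srxn1 was 10.63 in the undecanal array titled GFP- of pool 3, against 10.21.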

How the results depend on the processing

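No member was called for undecanal or for the interaction under any alternative run. The count of members called between fractions was 10 in undecanal pools and 12 in vehicle pools, and it was 25 and 28 with each array centred on its median, because that centring lowers the median of all probe sets to -0.46 and -0.47. Under the other settings the counts ran from 9 to 15 in undecanal pools and from 8 to 13 in vehicle pools, the vehicle low of 8 coming without vehicle pool 2. With the pool as a replicate block they were 11 and 13: Gstm1 passed in undecanal pools (0.88), and Sult2a7, below background in all groups, was lower in vehicle pools (-0.66). Among the named pathway genes the block changed only the undecanal call of Srxn1, and it changed no other call. Over 38 named genes and 76 results, 1130 of 1196 recomputed values kept direction and call, 27 lost the call, 27 gained it and 12 changed sign. The sign changes concerned differences without a call. Centring on mature neuron genes turned Ugt3a2 to 0.15, Sult1d1 to 0.17, Sult4a1 to 0.0068 and Bpnt1 to 0.10 in undecanal pools, and Sult1d1 to 0.13 and Sult4a1 to 0.052 in vehicle pools. Median centring turned Ugt2a3 to -0.28 in vehicle pools. In undecanal pools array weights turned Ugt3a2 to 0.025 and quantile normalization turned Sult1d1 to 0.011. With single pools left out, undecanal values ran from -0.16 to 0.21 for Ugt3a2 and from -0.044 to 0.023 for Sult1d1, both highest without undecanal pool 4, and from -0.26 to 0.099 for Bpnt1, highest without undecanal pool 2. The cause was not tested. The lowest-mean probe set gave no separate value, since no member had several. Signals below background give only bounds, which limits 39 of the 53 members in at least 1 group and 32 of them in all 4.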
